A study of Rattus norvegicus with 9 samples.

Results

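The miR-379 to miR-410 cluster is the long array of miRNA hairpins at the distal end of the imprinted Dlk1-Dio3 domain. Its members were taken by name from a table of miRNA read counts, as every row of the array's hairpins with or without an arm suffix. This gave 65 of 726 rows, from 36 hairpins, of which 30 rows carried the suffix 5p, 31 carried 3p and 4 carried none. The libraries were small RNA libraries from wild-type rat condylar cartilage progenitor cells in primary culture, in 3 groups of 3. P3 was the control at passage 3, P9 was the same cell type at passage 9, which the study used as its replicative senescence group, and FFSS was passage 3 cells under flow fluid shear stress, its degeneration model. The sources used here do not give the strength and duration of the flow. Nothing in the labels ties the replicates to distinct animals or cultures, and a p-value here reflects no more than the spread among these libraries.

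In mammals the array is transcribed from the maternal chromosome as long RNAs, from which Drosha and Dicer cut a hairpin and then a short duplex for each miRNA. Each strand of the duplex, the 5p arm and the 3p arm, can be loaded into Argonaute, and pairing through its seed (bases 2 to 8) guides repression of mRNAs. The cluster is known for its high expression in brain, embryo and placenta. In neurons the transcription factor Mef2 drives it with activity, and its member miR-134 restrains dendritic spine growth by repressing Limk1.

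In RefSeq (assembly GRCr8) 64 of the 65 rows had a mature sequence, all on rat chromosome 6. The exception was miR-679, which is therefore named only. The assembly is not the build named by the submitters, so hairpins are given by their order in RefSeq, from 1 for miR-379 to 35 for miR-410. Rows on the same strand as miR-379 numbered 61, and 3 lay on the opposite strand. The sequences that follow, 5′ to 3′ with the seed in capitals, are 6 of the leading members by reads (miR-409a-3p and miR-409b, also among them, follow in another set) and miR-494-3p, which had the lowest FFSS to P3 ratio called among members above 10 CPM (the count scaled to the library's total) in P3.
miR-379-5p: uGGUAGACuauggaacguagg
miR-411-5p: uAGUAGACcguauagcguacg
miR-541-5p: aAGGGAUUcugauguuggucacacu
miR-134-5p: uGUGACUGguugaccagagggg
miR-495: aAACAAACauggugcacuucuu
miR-543-3p: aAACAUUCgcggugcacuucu
miR-494-3p: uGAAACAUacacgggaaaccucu

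The seeds of the cluster were diverse. The 64 sequences held 58 distinct seeds, and 5 seeds were shared by more than 1 row. GGUUGUC occurred in miR-410-5p, miR-494-5p and miR-496-5p, UGGAUAU in miR-376b-5p and miR-376c-5p, and AUACAAG in miR-381-3p and miR-539-3p. Members with different seeds could still be alike elsewhere: miR-495 and miR-543-3p, printed above, shared a run of 11 bases. The neighbours miR-381-3p and miR-300-3p shared a run of 14 bases but not the seed. miR-381-3p, annotated with 18 bases, was listed with 41 reads over the 9 libraries and miR-300-3p with 4679, and the sources used here do not give how reads that match both were assigned. These 3 sequences show the shared seed and the shared run.
miR-381-3p: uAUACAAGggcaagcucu
miR-300-3p: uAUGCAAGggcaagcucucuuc
miR-539-3p: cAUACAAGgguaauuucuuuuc

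Some rows of the table whose miRNAs are annotated on opposite strands of the same stretch mirrored each other in their counts. The counts of miR-409b were between 0.984 and 1 times those of miR-409a-3p in every library, and the reverse complement of miR-409b held all 20 bases of miR-409a-3p. The row miR-3592, outside the cluster, stood at 0.994 to 1 times miR-382-3p, with 21 shared bases. The rows miR-3579 and miR-3576 had counts identical to miR-380-5p and miR-539-5p, and miR-3578 was at 0.978 to 1 times miR-369-5p. The mirror was looser for miR-299b-5p, at 0.66 to 0.838 times miR-299a-3p. The sources used here do not state whether the counting used strand. The reads of the members of these pairs cannot be told apart and each pair counts as uncertain.
miR-409a-3p: aAUGUUGCucggugaacccc
miR-409b: aGGGGUUCaccgagcaacauucg
miR-382-3p: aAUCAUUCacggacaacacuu
miR-3592: aAGUGUUGuccgugaaugauu
miR-299a-3p: uAUGUGGGacgguaaaccgcu
miR-299b-5p: cGGUUUACcgucccacauac

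The cluster was a small fraction of the miRNA reads and was lowest under shear stress. Its share was 0.265%, 0.272% and 0.207% in the P3 libraries (mean 0.248 ± 0.0359%, SD, n = 3). In P9 it was 0.315%, 0.278% and 0.327% (0.307 ± 0.0254%, SD, n = 3). In FFSS it was 0.0494%, 0.118% and 0.108% (0.0917 ± 0.0369%, SD, n = 3). All FFSS libraries lay below all P3 and P9 libraries, and all P9 libraries lay above all P3 libraries. Counting error was small beside this spread: the 95% Wilson interval in the shallowest library, FFSS replicate 1, was 0.0469 to 0.0521%. Intervals cover counting error only, and in bulk RNA fewer expressing cells and less RNA per cell cannot be told apart.

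**Figure D1:**
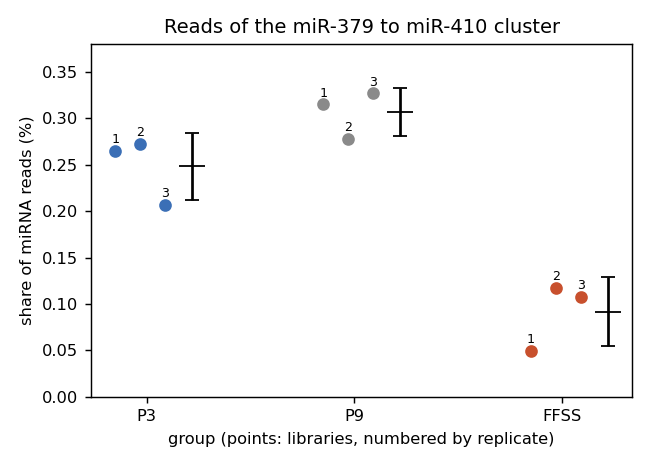
Share of all miRNA reads (percent, y axis) held by the 65 members in each library, with points numbered by replicate and horizontal lines with bars for the group mean and SD (n = 3). The FFSS libraries lie between 0.0494 and 0.118%, below every P3 library (0.207 to 0.272%) and every P9 library (0.278 to 0.327%).

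The libraries held 2878910 to 8862560 miRNA reads, and all 3 FFSS libraries were shallower than every P3 and P9 library. Between 41 members (FFSS replicate 1) and 62 members (P3 replicate 3) had at least 1 read, and 15 members had fewer than 10 reads in every library. The filter on low counts kept 439 rows for testing, of which 47 were members, from 32 hairpins. The 18 members left out held 0.214% of the cluster's reads, and none of them had a mean above 6.22 counts. A member that is high in P3 only can pass such a filter through P3, so the counts over the 47 describe the rows tested and not the whole array. Cartilage miRNAs, among them miR-140 and miR-455, were present in every library, with 4 rows that summed to 4150 to 7370 CPM in P3, 2590 to 3847 in P9 and 6077 to 7202 in FFSS.

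Reads were concentrated in a few hairpins, toward both ends of the array. The first hairpin, miR-379, held 23.4% of the cluster's reads, its neighbour miR-411 held 16.3%, and miR-541, in position 30, held 12.5%. These 3 hairpins gave 52.1% together. The highest row, miR-379-5p, ranked 72 among the 726 rows. Levels of different miRNAs are compared here as CPM, which carries no length term, and mature lengths ran from 17 to 25 bases.

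miR-379-5p was at 526.9, 533.2 and 486.8 CPM in P3, 704, 589.6 and 700 CPM in P9, and 143.1, 381.8 and 290.3 CPM in FFSS. miR-411-5p was at 431.1, 306.4 and 303.3 CPM in P3, 496.7, 376.5 and 286.8 CPM in P9, and 53.5, 146.4 and 194.5 CPM in FFSS. miR-541-5p was at 342, 400 and 252 CPM in P3, 291, 326 and 526 CPM in P9, and 44.5, 104 and 72.1 CPM in FFSS. In all 3 the FFSS libraries lay below every P3 and P9 library, with FFSS replicate 1 the lowest. Only for miR-379-5p did P9 lie above P3 without overlap.

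The next members by level were miR-134-5p, miR-409a-3p and miR-495. miR-134-5p was at 122.6, 111.8 and 83.6 CPM in P3, 123.8, 107.3 and 141.5 CPM in P9, and 38.9, 64.4 and 67.8 CPM in FFSS. miR-409a-3p was at 99.99, 134.1 and 77.1 CPM in P3, 109.5, 124.1 and 223.1 CPM in P9, and 20.8, 33.6 and 30.3 CPM in FFSS. miR-495 was at 99.9, 161 and 66.1 CPM in P3, 108, 116 and 178 CPM in P9, and 29.9, 49.3 and 39.0 CPM in FFSS. The P3 and P9 libraries overlapped for these 3 members and FFSS lay below both groups. Their mean levels in P3 (106 ± 20.1, 104 ± 28.7 and 109 ± 48.3 CPM, SD, n = 3) did not differ beyond their spread.

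**Figure D2:**
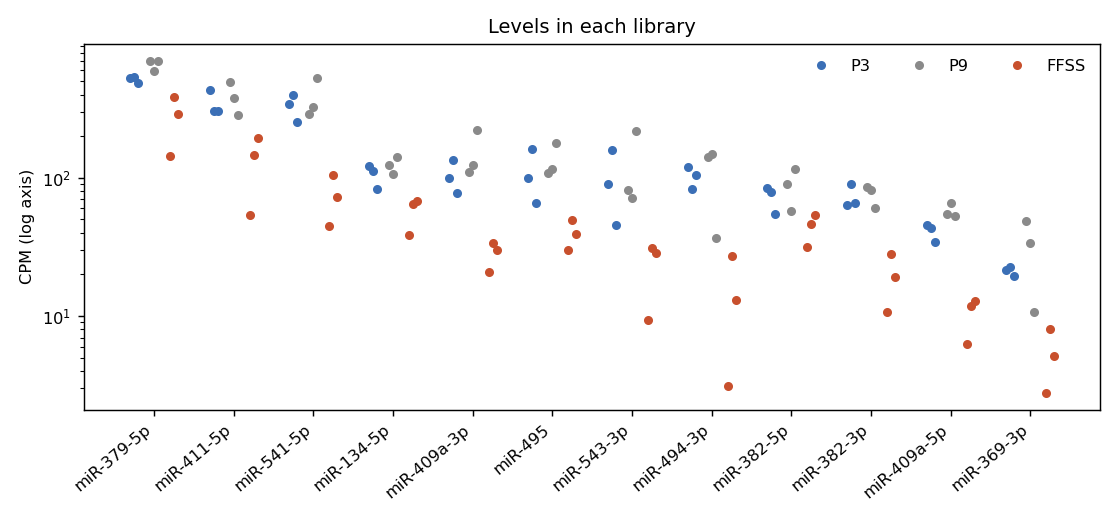
Level in CPM (log axis, y) of 12 members in each of the 9 libraries, 1 point per library, in replicate order within each group from left to right. FFSS points lie below all P3 points for every member shown, while P3 and P9 points overlap for most of them.

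Shear stress was compared with its control at the same passage. Of the 47 members tested, 26 were lower in FFSS than in P3 and 0 were higher (edgeR's quasi-likelihood test, Benjamini-Hochberg adjusted p under 0.05 over 439 rows). Over all 439 rows 13.7% were called lower and 6.83% higher. The median log2 fold change of the members was -1.52 with quartiles of -2.01 and -0.94, against 0.02 over all rows tested and 0.19 over the rows outside the Dlk1-Dio3 lists. A negative value was found for 46 members, against 49% of all rows (51% positive, against 1 member). At least 2-fold lower were 33 members, against 89 of all 439 rows. The groups did not overlap, with FFSS lower, for 35 members, against 22.6% of all rows. DESeq2 called 30 members lower and 0 higher, against 74 of all 439 rows lower and 43 higher. Treating miR-409b as a copy of miR-409a-3p left 25 of 46 called.

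The count of 26 moved with single libraries. It was 16 without P3 replicate 1, 14 without P3 replicate 2 and 17 without FFSS replicate 3, and 32 without P9 replicate 3, a library of neither group that takes part in the joint fit. Calls on 13 members held in all 9 such fits and in every other alternative in which the row was tested: miR-1193-3p, miR-154-3p, miR-299a-3p, miR-299b-5p, miR-329-5p, miR-376b-3p, miR-382-3p, miR-409a-3p, miR-409a-5p, miR-409b, miR-411-3p, miR-541-5p and miR-667-5p. These 13 rows are not 13 separate signals, since miR-409a-3p and miR-409b mirror each other, as do miR-299a-3p and miR-299b-5p more loosely. Without a filter 31 of 65 members were called, and among the 27 members with a mean of at least 50 counts 17 were called. With every library thinned to 2878910 reads 21 were called. The share of all rows called in these alternative fits is not given here.

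The falls of abundant members, from all along the array, varied in size. The most abundant, miR-379-5p, was not called (log2 fold change -0.98, edgeR adjusted p = 0.0543). miR-541-5p, whose levels are given above, fell by 2.22 on the log2 scale (SE 0.40, adjusted p = 0.00674). miR-411-5p fell by 1.47 (SE 0.37, adjusted p = 0.021), a call lost without P3 replicate 1 or P3 replicate 2. miR-495 fell by 1.53 (SE 0.41, adjusted p = 0.0267), lost without P3 replicate 2 or FFSS replicate 3. The smallest fall called was that of miR-134-5p, the Limk1 regulator of neurons, at 0.94 (SE 0.30, adjusted p = 0.0441), and it was lost in 7 of the 9 fits that left out a library.

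miR-494-3p had the lowest log2 ratio of the members with at least 10 CPM in P3. It was at 119.6, 82.8 and 104.7 CPM in P3, 140.8, 147.7 and 36.9 CPM in P9, and 3.13, 27.1 and 13.1 CPM in FFSS. It fell by 2.81 (SE 0.63, adjusted p = 0.00985), and without FFSS replicate 3 the adjusted p was 0.0501. Without FFSS replicate 2 the log2 fold change was -3.76. miR-543-3p was at 90.8, 160 and 45.4 CPM in P3, 81.0, 71.2 and 217 CPM in P9, and 9.38, 31.1 and 28.5 CPM in FFSS, a fall of 2.18 (SE 0.60, adjusted p = 0.0293). The call on miR-543-3p was lost in 4 of the 9 fits that left out a library (P3 replicate 1 or 2, FFSS replicate 1 or 3), and without P3 replicate 2 the log2 fold change was -1.51 (adjusted p = 0.106). All FFSS libraries lay below all P3 libraries for both, and the P3 and P9 libraries of miR-543-3p were widely spread.

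miR-1193-3p, in position 10, was at 30.0, 23.8 and 22.5 CPM in P3, 46.8, 31.0 and 21.4 CPM in P9, and 2.08, 6.35 and 7.70 CPM in FFSS, and fell by 2.26 (SE 0.42, adjusted p = 0.00674). miR-329-5p, in position 8, was at 31.4, 31.2 and 24.03 CPM in P3, 37.2, 39.8 and 19.7 CPM in P9, and 3.47, 9.88 and 7.96 CPM in FFSS, and fell by 2.04 (SE 0.41, adjusted p = 0.00841). For both rows the lowest P3 library was above 2 times the highest FFSS library. miR-369-3p, in position 34, was at 21.6, 22.5 and 19.6 CPM in P3, 49.0, 33.8 and 10.6 CPM in P9, and 2.78, 8.05 and 5.13 CPM in FFSS. It fell by 1.99 (SE 0.51, adjusted p = 0.0219), a call lost when P3 replicate 2 or 3, or FFSS replicate 3, was left out.

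The miR-409a hairpin fell on both arms. miR-409a-5p was at 45.9, 43.3 and 34.4 CPM in P3, 54.8, 66.0 and 53.3 CPM in P9, and 6.25, 11.9 and 12.8 CPM in FFSS, a fall of 2.04 (SE 0.33, adjusted p = 0.00636). miR-409a-3p fell by 1.93 (SE 0.40, adjusted p = 0.00841). For the 5p arm the 3 groups were in the order FFSS, P3, P9 with no overlap.

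For miR-382 the arms differed in their calls. miR-382-3p was at 63.8, 89.5 and 65.4 CPM in P3, 86.0, 82.2 and 60.4 CPM in P9, and 10.8, 28.0 and 19.2 CPM in FFSS, and fell by 1.97 (SE 0.38, adjusted p = 0.00724). miR-382-5p was at 84.3, 78.6 and 54.5 CPM in P3, 90.1, 57.6 and 115 CPM in P9, and 31.6, 46.2 and 53.6 CPM in FFSS, with a log2 fold change of -0.78 (SE 0.33, adjusted p = 0.112). The FFSS libraries of the 5p arm were below all P3 libraries too, with FFSS replicate 3 just under P3 replicate 3. The difference between the arms is tested further on.

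The ends of the array showed values in the same direction, only part of them called. At the start, miR-379-5p had a log2 fold change of -0.98 (SE 0.33, adjusted p = 0.0543) and so was not called. It was called in 7 of 19 alternatives, by DESeq2 (adjusted p = 0.0322) and without P9 replicate 3 (0.0239) or FFSS replicate 2 (0.0191) among them. miR-379-3p, at 29.4, 29.2 and 21.8 CPM in P3, 57.7, 30.3 and 32.8 CPM in P9, and 5.21, 13.3 and 14.1 CPM in FFSS, fell by 1.35 (SE 0.38, adjusted p = 0.0313). At the far end, miR-410-3p was at 19.0, 28.2 and 20.4 CPM in P3, 49.0, 31.0 and 19.8 CPM in P9, and 4.86, 15.8 and 5.90 CPM in FFSS, with -1.35 (SE 0.49, adjusted p = 0.0674). Without FFSS replicate 2 this was -2.17 (adjusted p = 0.0155), and DESeq2 called it too (adjusted p = 0.0322). FFSS lay below P3 without overlap for all 3 rows. The call on miR-379-3p was lost when any P3 library or FFSS replicate 3 was left out.

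Some members had no reads at all under shear stress. miR-154-3p was at 1.43, 1.86 and 5.87 CPM in P3 (78 reads), 3.15, 1.78 and 1.35 CPM in P9 (49 reads) and had 0 reads in every FFSS library. Set against a floor of 3 counts over the FFSS group (0.216 CPM), it was at least 14.1-fold lower than in P3 (adjusted p = 0.00841) and at least 9.66-fold lower than in P9. P3 replicate 3 held 52 of the 78 reads, and without it the P3 bound was 7.59-fold (adjusted p = 0.0176). miR-377-5p had 4, 4 and 3 reads in P3, 5, 8 and 4 in P9 and 0 in FFSS, and was at least 2.07-fold lower than in P3. miR-410-5p had 8, 5 and 3 reads in P3, 6, 1 and 2 in P9 and 0 in FFSS, and was at least 3.01-fold lower than in P3. Neither passed the filter for a test. With miR-154-3p at its bound the members' median log2 fold change stayed at -1.52. The other arm, miR-154-5p, had 35, 22 and 33 reads in P3 and 0, 26 and 16 in FFSS, so that the 2 arms of this hairpin stood apart in FFSS replicates 2 and 3.

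Of the 21 members not called, 20 had negative values. Their log2 fold changes ran from -2.32 (miR-541-3p, adjusted p = 0.112, with 15, 10 and 2 reads in P3, 9, 11 and 14 reads in P9, and 0, 3 and 0 reads in FFSS) to 0.53. The only positive value was that of miR-299b-3p (0.53, SE 0.62, adjusted p = 0.551), which had 5 to 11 reads per P3 library. miR-376b-5p was at -0.01 (SE 0.38, adjusted p = 0.988), a value whose sign changes with the scaling of the libraries. These last names were chosen after their values were seen.

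Taken library by library, the fall was deepest in the shallowest FFSS library and present in all 3. The median log2 difference of the 47 members from their P3 mean was -2.36, -1.13 and -1.31 in FFSS replicates 1, 2 and 3. Below every P3 library lay 46, 40 and 37 members respectively, a count that was not made over all rows. The same medians over all 439 rows were -0.04, 0.01 and -0.04. Without FFSS replicate 1, 20 members were called lower.

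Markers of other cell types, fixed as lists, moved in part with the groups. The 2 endothelial rows of miR-126a summed to 386 to 406 CPM in P3 and 556 to 695 CPM in FFSS. The 8 blood rows summed to 75.8 to 157 CPM in P3, 69.7 to 308 CPM in P9 and 167 to 592 CPM in FFSS. The 13 nervous system rows ranged from 552 to 1180 CPM in P3 and from 578 to 1399 CPM in FFSS. The summed levels of the endothelial and of the blood list were thus higher in every FFSS library than in any P3 library, while those of the nervous system list overlapped. Among single rows, 2 of 6 tested nervous system rows (miR-9a-5p and miR-9a-3p) were called higher in FFSS than in P3. So were 1 of 4 tested blood rows (miR-142-5p) and 1 of 6 tested epithelial rows (miR-200b-3p). The log2 fold changes of these calls were 1.21 to 1.75, and 6.83% of all rows were called higher. No row of the other lists was called. The nervous system rows not called went both ways, from -0.62 (miR-128-1-5p) to 1.16 (miR-138-5p). In FFSS the 11 epithelial rows summed to 91.6 to 231 CPM and the 5 muscle rows to 32.2 to 81.3 CPM, against 83.2 to 103 and 29.2 to 33.8 CPM in P3. The 2 liver rows of miR-122 were at 10.1 to 11.7 CPM in P3 and 15.5 to 51.4 CPM in FFSS, and no marker row was at 0 in all libraries. Their part in the fall of the cluster was not tested.

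The calls were spread along the array. Hairpins 1 to 12 had 11 of 18 tested rows called lower in FFSS (median -1.496), hairpins 13 to 24 had 9 of 14 (median -1.52) and hairpins 25 to 35 had 6 of 15 (median -1.66). The share over all rows tested was 13.7%. Over 30 hairpins, those on the strand of miR-379 (miR-299b and miR-409b, on the opposite strand, were left out), Spearman's rho between order and log2 fold change was 0.065 for FFSS against P3 and 0.038 for P9 against P3, given as a description over hairpins that share the same libraries. Order and level had a rho of -0.121. Neighbours could differ: miR-758-3p in position 7 was at -0.64 (adjusted p = 0.271). Before it, miR-323-3p was at -1.46 (adjusted p = 0.0267). After it, miR-329-3p was at -1.325 and miR-329-5p at -2.04. The calls on miR-323-3p and miR-329-3p were lost in 5 and 7 of the 9 fits that left out a library. The difference between these neighbours was not tested.

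**Figure D3:**
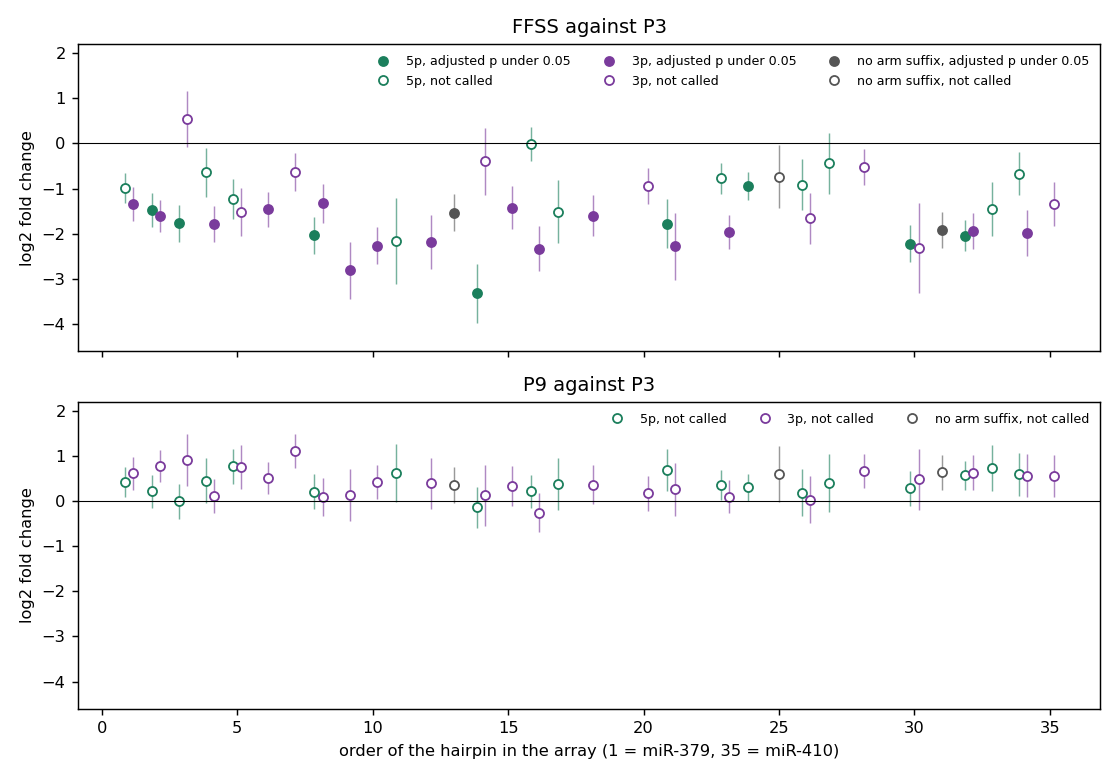
Log2 fold change (y) with SE bars of each tested member against the order of its hairpin in the array (x, from miR-379 at 1 to miR-410 at 35), for FFSS against P3 above and P9 against P3 below. Filled points are called, colours give the arm, and miR-154-3p (0 reads in FFSS) is left out. In FFSS all values but miR-299b-3p are below 0 along the whole array (miR-376b-5p, at -0.01, is above 0 under other scalings), and in P9 none is called.

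The arms were compared over all rows and then within hairpins, where the ratio does not depend on how libraries are scaled. Rows with the suffix 3p were called lower in FFSS in 16 of 25 cases (median -1.61), and 5p rows in 8 of 19 (median -1.45). Among all rows tested 13.7% were called lower. The 5p rows made up 61.3 ± 2.85% of the cluster's reads in P3, 59.5 ± 0.511% in P9 and 68.8 ± 0.804% in FFSS (SD, n = 3). Both the calls by arm and this share compare rows of different hairpins. miR-379-5p, the highest row, had a log2 fold change of -0.98 in FFSS against P3, beside the members' median of -1.52. A higher 5p share therefore does not by itself show a change of arm within hairpins. The log2 ratio of 5p to 3p reads was tested with limma over the 89 hairpins of the table whose arms each averaged 20 counts or more, 11 of them in the cluster. Between FFSS and P3, 1 of the 11 was called, toward 5p. Of all 89 hairpins 4.49% were called, 1 toward 5p (this same hairpin) and 3 toward 3p. The ratio was higher in FFSS than in P3 for 9 of the 11 (median difference 0.71 on the log2 scale), against 34 of 89 hairpins overall (median -0.25).

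The hairpin called was miR-376b, in position 16 within the miR-376 group, a family known for A-to-I editing of its primary transcripts. It was named because it was the only call. Its arms are printed with the seed in capitals.
miR-376b-5p: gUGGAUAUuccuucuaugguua
miR-376b-3p: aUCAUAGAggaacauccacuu

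miR-376b-5p had 46, 33 and 46 reads in P3 and 9, 32 and 31 in FFSS. miR-376b-3p had 66, 73 and 55 reads in P3 and 2, 11 and 10 in FFSS. With 0.5 added to each count, as for all arm ratios here, the ratio of 5p to 3p reads was 0.699, 0.456 and 0.838 in the P3 libraries, 0.861, 0.731 and 1.23 in those of P9, and 3.80, 2.83 and 3.00 in those of FFSS. Every FFSS library was above every other library, so that the more abundant arm as counted was 3p in P3 and 5p in FFSS. The log2 ratio differed by 2.30 (SE 0.37, limma adjusted p = 0.00384), and the call held without any of the 9 libraries. It rests on few reads, and with at least 100 counts required on each arm the hairpin was not tested and 0 cluster hairpins were called. As single rows, miR-376b-3p fell by 2.33 (SE 0.50, edgeR adjusted p = 0.00944) and miR-376b-5p was at -0.01. The 5p arms of miR-376b and miR-376c share their seed, UGGAUAU, and most of the bases after it. Over the 9 libraries miR-376c-5p was listed with 1 read and miR-376b-5p with 328, while miR-376c-3p had 583 and miR-376b-3p 367. How reads that match both 5p arms were assigned is not given, so the arm ratio of miR-376b counts as uncertain.

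miR-382 and miR-369 had differences in the same direction that did not pass. For miR-382 the 5p to 3p ratio was 1.32, 0.878 and 0.833 in P3 and 2.91, 1.65 and 2.77 in FFSS (difference 1.26 on the log2 scale, SE 0.43, limma adjusted p = 0.0834). For miR-369 it was 0.929, 1.07 and 0.731 in the P3 libraries, 0.462, 0.524 and 4.04 in those of P9, and 1.94, 2.30 and 2.56 in those of FFSS (difference 1.33, SE 0.68, limma adjusted p = 0.202). P9 replicate 3 alone lay above the FFSS libraries for miR-369. Without P9 replicate 3, 4 cluster hairpins were called in FFSS against P3: miR-376b, miR-369 (adjusted p = 0.00824), miR-382 (adjusted p = 0.0148) and miR-485 (adjusted p = 0.0441). In that fit 36% of all 89 hairpins were called. For the 2 hairpins with the most reads the differences were small, at 0.37 for miR-379 (SE 0.35) and 0.07 for miR-411 (SE 0.40).

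**Figure D4:**
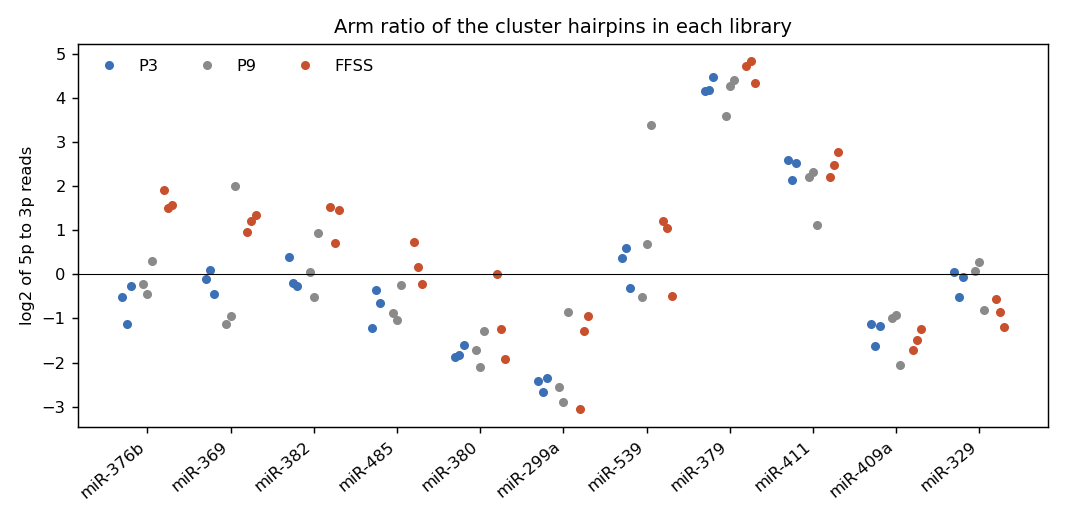
Log2 ratio of 5p to 3p reads (y) of the 11 cluster hairpins tested, 1 point per library, ordered by the difference between FFSS and P3. For miR-376b all FFSS points lie above all P3 and P9 points, and P9 replicate 3 stands away from the other P9 points for miR-369 and miR-539.

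Passage 9 was compared with passage 3 for replicative senescence. No member was called in either direction, against 3.87% of all rows called higher and 3.42% called lower. By DESeq2 the count was 0 as well, against 25 of all 439 rows higher and 21 lower. Before adjustment 2 members had a p under 0.05, both higher, against 10.5% of all rows higher at that level. The values were mostly positive, for 43 of 47 members against 54.4% of all rows, with a median of 0.39 against 0.06 over all rows. The groups did not overlap, with P9 higher, for 8 members, against 11.2% of all rows, and with P9 lower for 0, against 14.1%. The difference between this response and that to shear stress is the contrast of FFSS with P9, given further on.

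The smallest p belonged to miR-758-3p, at 3.33, 2.92 and 2.14 CPM in P3, 7.75, 5.21 and 4.52 CPM in P9, and 1.74, 1.55 and 2.31 CPM in FFSS. Its log2 fold change in P9 was 1.10 (SE 0.37, adjusted p = 0.0947). Without P9 replicate 3 it was 1.24 (SE 0.37, adjusted p = 0.0458), the 1 call found under any alternative. P9 lay above P3 without overlap, at low counts.

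miR-411-3p was at 70.9, 69.4 and 52.8 CPM in P3, 106.9, 74.99 and 132.3 CPM in P9, and 11.5, 26.3 and 28.0 CPM in FFSS. In P9 it had a log2 fold change of 0.77 (SE 0.35, adjusted p = 0.272). miR-380-5p, which shares its counts with miR-3579, was at 3.69, 1.99 and 3.16 CPM in P3, 5.52, 4.70 and 4.16 CPM in P9, and 0.695, 1.27 and 1.80 CPM in FFSS. In P9 its value was 0.77 (SE 0.38, adjusted p = 0.323), and for miR-409a-5p 0.56 (SE 0.31, adjusted p = 0.418). All 3 were higher in each P9 library than in any P3 library without passing the test over all rows.

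P9 replicate 3 differed from the other P9 libraries in the proportions of the members. Of 39 members with a mean of at least 20 counts, 3 were at least 2-fold above and 10 at least 2-fold below the mean of P9 replicates 1 and 2, while replicates 1 and 2 differed by 2-fold in 0 of the 39. The highest ratios were those of miR-543-3p (2.85), miR-485-5p (2.24) and miR-369-5p (2.15). The lowest were those of miR-539-3p (0.106), miR-494-3p (0.256) and miR-369-3p (0.257). Both arms of miR-369 thus moved apart in this library, with 22.6, 17.7 and 43.2 CPM for the 5p arm and 49.0, 33.8 and 10.6 CPM for the 3p arm in P9.

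Among these 39, 9 of 16 5p rows and 6 of 21 3p rows were above the other P9 libraries, with median ratios of 1.12 and 0.594. The other rows spread to a like extent: of 336 with the same mean 38 were at least 2-fold above and 70 at least 2-fold below, a share of 32.1% against 33.3% of the members. Between P9 replicates 1 and 2, 9 of those 336 rows differed by 2-fold. The cluster's median log2 difference from P3 was 0.26, 0.39 and 0.54 in P9 replicates 1, 2 and 3. In replicate 3, 23 members lay above and 17 below every P3 library, against 30 and 1 in replicate 1 and 24 and 1 in replicate 2. These counts were not made over all rows.

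**Figure D5:**
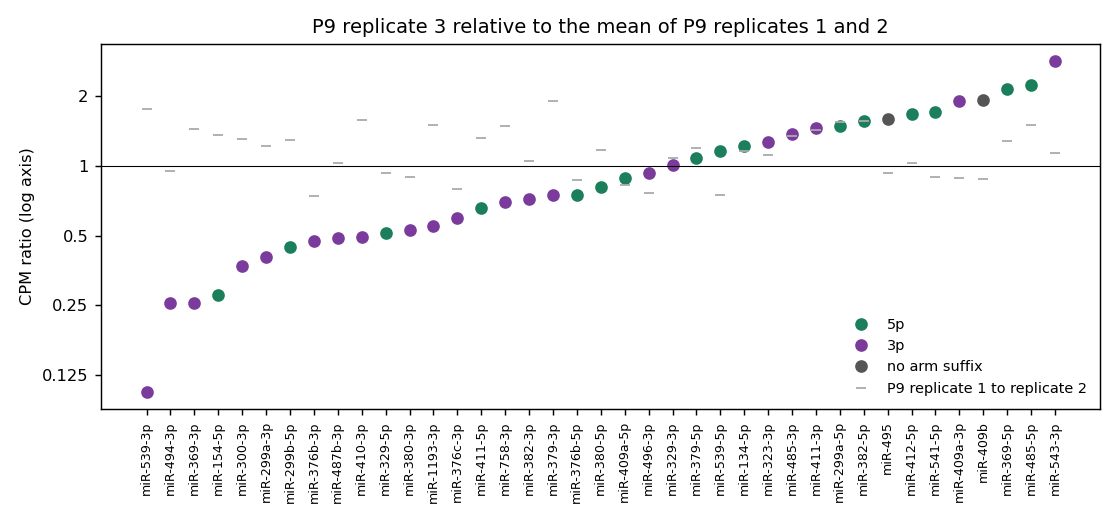
Ratio of the CPM in P9 replicate 3 to the mean of P9 replicates 1 and 2 (y, log axis) for the 39 members with a mean of at least 20 counts, in rising order, with colours for the arm and grey dashes for the ratio of replicate 1 to replicate 2. The ratios run from 0.106 for miR-539-3p to 2.85 for miR-543-3p, and the dashes stay between 0.738 and 1.91.

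Between FFSS and P9 the members differed most widely. FFSS was lower for 39 of 47 members and higher for 0, against 22.6% and 11.8% of all rows called lower and higher. The median log2 fold change was -1.96, all 47 values were negative, against 50.6% of all rows, and 37 members did not overlap with FFSS lower, against 23% of all rows. Calls on 27 members, the rows of these mirrored pairs (miR-409a-3p with miR-409b, miR-299a-3p with miR-299b-5p) among them, held in all 9 fits that left out a library. The 26 members called against P3 were all among the 39, but both comparisons use the same FFSS libraries.

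miR-379-5p, not called against P3, was lower than in P9 by 1.40 on the log2 scale (log2 fold change -1.40, SE 0.34, adjusted p = 0.00632). For miR-410-3p the value was -1.91 (SE 0.49, adjusted p = 0.00953), for miR-758-3p -1.74 (SE 0.41, adjusted p = 0.00578) and for miR-382-5p -1.12 (SE 0.34, adjusted p = 0.0211). The call on miR-382-5p was lost without P9 replicate 3 or FFSS replicate 3. That on miR-410-3p was lost without FFSS replicate 3 (adjusted p = 0.0502), and without FFSS replicate 2 its value was -2.73. The members not called were miR-668, miR-369-5p, miR-485-5p, miR-299a-5p, miR-154-5p, miR-667-3p, miR-299b-3p and miR-376b-5p, the last at 5.55 ± 0.982 CPM in P9 and 5.20 ± 2.49 CPM in FFSS (SD, n = 3). These 8 included the 5p arms of miR-154, miR-299a, miR-369, miR-376b and miR-485, whose 3p arms were called, and the 3p arms of miR-299b and miR-667, whose 5p arms were called. miR-299b-3p overlaps miR-299a-5p on the opposite strand by 17 bases, so the miR-299b rows are no separate case from those of miR-299a. A call on 1 arm alone is not a difference between arms. The arm ratios of miR-299a, miR-369 and miR-485 were not called (limma adjusted p = 0.72, 0.227 and 0.15). The arm ratio of miR-376b differed by 1.79 toward 5p (SE 0.37, limma adjusted p = 0.0156), 1 of 11 cluster hairpins. Of all 89 hairpins 7.87% were called, 2 toward 5p and 5 toward 3p. The call on miR-376b was lost without P9 replicate 1, P9 replicate 2, FFSS replicate 1 or FFSS replicate 3. Without P9 replicate 3, 5 cluster hairpins were called, 4 toward 5p and miR-329 toward 3p, against 37.1% of all 89. Those toward 5p were miR-376b, miR-382, miR-369 (limma adjusted p = 0.000301) and miR-485 (limma adjusted p = 0.0269).

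The rest of the domain gave values of a like size. The proximal and Rtl1-antisense miRNAs of Dlk1-Dio3, among them miR-127, miR-433, miR-434, miR-493 and miR-370, had 17 of 23 rows tested. Of these, 11 were lower in FFSS than in P3 and 0 higher, against 13.7% and 6.83% of all rows. The median log2 fold change was -1.41. In P9 against P3, 0 of the 17 were called, against 3.42% of all rows lower and 3.87% higher. The median there was 0.15. Their share of the reads was 0.375 ± 0.0721% in P3, 0.364 ± 0.0339% in P9 and 0.128 ± 0.0625% in FFSS (SD, n = 3). The cluster and the proximal list were not tested against each other.

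The rows outside the domain's lists whose pattern was most like the members' mean over the 9 libraries were ranked by Pearson's r, given as a description. They were miR-3543 (r = 0.973), miR-3592 (0.965), miR-3072 (0.938), miR-3579 (0.934) and miR-145-5p (0.914). miR-3592 and miR-3579 are the opposite-strand rows of the members miR-382-3p and miR-380-5p, and miR-3543 is that of miR-434-3p, a proximal miRNA. miR-3072 had no RefSeq entry, so whether it lies in the domain was not known here. It was near the floor, at a mean of 0.983 CPM in P3 and 0.398 CPM in FFSS (edgeR adjusted p = 0.24). miR-145-5p, an abundant miRNA of smooth muscle and other mesenchymal cells, was at a mean of 5958 CPM in P3 and 2047 CPM in FFSS, and fell by 1.57 on the log2 scale (adjusted p = 0.00944).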

How the data were processed

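Small RNA from 9 libraries had been sequenced from 1 end. Read counts per miRNA row and TPM values were deposited in 1 table, per the file headers. The deposited TPM equalled the count scaled to the library's total (CPM) with a largest difference of 4.85e-05. The submitters' processing notes name Bowtie and Rnor_6.0, and the sources used here do not give the counting program.

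Counts were tested with edgeR 4.0.16 in R 4.3.3: filterByExpr, TMM scaling, 1 model of all 9 libraries and the robust quasi-likelihood test. Benjamini-Hochberg adjustment ran over 439 rows, with a threshold of 0.05. Rows removed held 0.00685% of the reads. Log2 ratios of arms, with 0.5 added to each count, were tested with limma 3.58.1. DESeq2 1.42.0 was an alternative. Both fits were tested on simulated data. Other alternatives were the scaling, the filter, the groups in the fit, merged rows, thinning and leaving out each library.

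Members given in every library were the 6 highest, the 8 lowest log2 ratios called in FFSS against P3 with at least 10 CPM in P3, uncalled members with at least 50 CPM in P3, the 4 with the smallest p in P9, those at 0 in a group, and the leading and end hairpins. Other names were chosen after their values were seen. The members and lists were chosen with earlier results of these data known. Replicate numbers were not taken as pairs.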

Additional observations from a re-analysis of the deposited data

How the results depend on the processing

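The count of 26 members lower in FFSS than in P3 was 17 among the 27 members with a mean of at least 50 counts, where fewer members were tested. It ranged from 14 to 32 when 1 library was left out, and from 20 to 31 under the other settings. Members higher in P9 than in P3 ranged from 0 to 1, the 1 call coming without P9 replicate 3. Members lower in FFSS than in P9 (39) ranged from 30 to 37 without 1 library. Of the cluster hairpins, 1 had a changed arm ratio in FFSS against P3, with a range of 1 to 4 without 1 library, and 1 in FFSS against P9, with a range of 0 to 5. Both counts were 0 with at least 100 counts on each arm, a minimum under which miR-376b was not tested.

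Between same-numbered libraries the correlation of deviations ran from -0.466 to 0.12 over 9 pairs and passed 0.1 in 1, so the numbers were not taken as pairs. With the replicate block 20 members were lower in FFSS than in P3, 34 lower in FFSS than in P9 and 0 changed in P9 against P3. With the block 1 hairpin had a changed arm ratio in each FFSS comparison. Under the replicate block miR-494-3p in P9 against P3 had a log2 fold change of -0.057.

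Among the members named by the rule, sign changes occurred in 8 of 395 values of P9 against P3, none of them called, and in 0 of 395 in each FFSS comparison. Without P9 replicate 3 the value was -0.066 for miR-541-5p and -0.37 for miR-543-3p. Without P9 replicate 2 it was -0.25 for miR-494-3p, -0.038 for miR-329-5p and -0.013 for miR-382-3p. Without P3 replicate 1 it was -0.081 for miR-382-3p, and without P3 replicate 3 it was 0.40 for miR-154-3p. The ranges without 1 library were -0.066 to 0.53 (miR-541-5p), -0.25 to 0.55 (miR-494-3p), -0.37 to 1.06 (miR-543-3p), -0.038 to 0.46 (miR-329-5p), -0.081 to 0.35 (miR-382-3p) and -0.96 to 0.40 (miR-154-3p). The cause was not tested.

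TMM factors computed without the Dlk1-Dio3 rows shifted the median of all rows by -0.12 in FFSS against P3, 0.10 in P9 against P3 and -0.23 in FFSS against P9. Calls over all rows were then 71 lower and 17 higher in FFSS against P3 (60 and 30 as reported) and 114 lower and 30 higher in FFSS against P9 (99 and 52). Relative to the shifted median of all rows the members' medians were -1.56 in FFSS against P3 and -1.94 in FFSS against P9. Negative values in FFSS against P3 were 45 of 47 with the DESeq2 size factors or the library size alone, since miR-376b-5p, not named by the rule, then became positive. Depth limits the members of few reads, above all in FFSS replicate 1.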
